A study of Mus musculus with 52 samples.

Results

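Dppa2, Dppa3, Dppa4 and Dppa5a are members of the developmental pluripotency-associated (Dppa) genes, and their 4 rows were taken by gene symbol from a table of raw read counts for 55291 mouse genes in 52 RNA-seq libraries. The libraries form 26 groups of 2, all of wild-type genotype, and each cell type came from 1 line. In the first set of 12 libraries, mouse extended pluripotent stem cells (EPSCs, line mc6-1/Mu-mClover3-10#, kept in LCDM medium) spent 2 days in a totipotency medium (S1), in CHIR-99021 joined by Elvitegravir, PD0325901 or CD1530, or in CHIR-99021 alone, beside untreated EPSCs (replicates 1 and 2). In the second set of 40 libraries, mouse embryonic stem cells (mESCs, line 2i-0606-td-ES, kept in 2i/L medium) spent 2 days in the totipotency medium or stayed untreated, and EPSCs grew in the totipotency medium over 25 or 38 passages (P25 and P38), beside another pair of untreated EPSC libraries (replicates 3 and 4). Aggregates of S1 cells were held for 1 day in a medium named 4C-64C (S2), and S2 aggregates for 1 more day (S3). Both stages were also run without 8Br-cAMP, Birabresib, CHIR-99021 or CD1530. S5 aggregates were made from stage S4, not analysed here, by 3 days in peri-implantation medium in Aggrewell plates, and were also run without Activin A, BMP4, FGF4 or XAV939. CHIR-99021 inhibits the kinase GSK3, PD0325901 inhibits MEK, CD1530 activates a retinoic acid receptor, Elvitegravir is an inhibitor of the HIV integrase, Birabresib blocks BET bromodomain proteins, 8Br-cAMP is a cAMP analogue and XAV939 inhibits tankyrase.

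The Dppa genes share a name and a pattern of expression in early embryos, germ cells and pluripotent cells rather than a common fold. Dppa2 and Dppa4 encode SAP-domain proteins that bind each other and chromatin. In mouse embryonic stem cells the pair is known to act upstream of Dux, the transcription factor that switches on genes of the 2-cell embryo such as the Zscan4 cluster. Dppa3, also called Stella or PGC7, is stored in the oocyte, marks germ cells and holds the methylation factor Uhrf1 away from chromatin. Dppa5a, also called Esg1, encodes a small RNA-binding protein with a KH domain and is abundant in pluripotent cells.

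On the mm10 build, Dppa4 lies at chr16:48283733-48294237 and Dppa2 at chr16:48303908-48319723, both on the plus strand and 9671 bases apart. Dppa3 lies at chr6:122626410-122630272 on the plus strand, and Dppa5a at chr9:78367052-78368177 on the minus strand. The annotation places no exon of another gene over their exons. Reads of 100 bases can nevertheless fit copies elsewhere in the genome. All 100-base windows were taken from the transcript of each gene with the longest coding sequence. Of these, 23.9% of Dppa2 windows also occurred in the pseudogenes Gm8023, Gm9298 or Gm9788, and 16.8% of Dppa4 windows in Gm14058 or Gm5501. For Dppa5a, 3.08% of windows also occurred in Dppa5b, Dppa5c, Gm15310 or Gm6798. No Dppa3 window was shared.

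Dppa5b and Dppa5c are unprocessed pseudogenes on the same chromosome as Dppa5a, and they show how closely such copies match. The alignment held 297 coding bases in 2 blocks, between bases 79 and 377 of the Dppa5a transcript. Over these aligned bases each copy differed from Dppa5a at 9 bases (97.0% identity). The gap between the blocks and the unaligned ends did not enter this value. The 2 copies were identical to each other over all 348 bases of their transcripts. The first 100 coding bases are shown, from GENCODE transcripts of the mm10 build, 5′ to 3′, with the bases that differ between Dppa5a and its copies in capitals.
Dppa5a: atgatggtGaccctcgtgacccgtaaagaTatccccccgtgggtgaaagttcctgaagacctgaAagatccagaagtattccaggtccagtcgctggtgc
Dppa5b: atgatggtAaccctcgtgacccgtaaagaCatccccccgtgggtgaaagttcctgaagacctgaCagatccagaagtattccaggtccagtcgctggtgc
Dppa5c: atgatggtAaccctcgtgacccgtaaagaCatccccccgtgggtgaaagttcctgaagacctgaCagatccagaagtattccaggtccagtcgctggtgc
Few reads were counted for the copies. The counts of the 3 Dppa2 pseudogenes came to between 0.643% and 7.11% of the Dppa2 count in a library (median 2.8%), those of the 2 Dppa4 pseudogenes to at most 1.26% of the Dppa4 count, and those of the 4 Dppa5a copies to at most 0.761% of the Dppa5a count. Adding them to their parent gene changed no call described here. The handling of reads that fit several places is not given. If such reads were left uncounted, neither these shares nor the unchanged calls can show their effect. On the scale of CPM (counts of a gene per 1000000 counts of the library, after TMM scaling for composition), the relative Dppa1 did not exceed 1.18 CPM and Dppa3-ps did not exceed 0.205 CPM in any library.

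Libraries held between 16643188 and 108304781 counts. In 46 of them 66.8% to 80.5% of counts between 1 and 10 were even numbers, against 40.7% to 42% in the other 6 (EPSC replicates 3 and 4, P25 and P38), so read pairs may have been counted differently. Halving the counts of the 46 changed no call for a Dppa gene, but it scales all genes of a library alike. It cannot show if the counting shifted some genes more than others. A further 3756 tested genes, Sox2 among them, had zero counts throughout the first set. All 4 Dppa genes had counts in every library, but untreated EPSCs differed between the sets: Dppa2 averaged 62.7 CPM in replicates 1 and 2 and 38.3 CPM in replicates 3 and 4, Dppa3 22.5 and 12.6 CPM, Dppa4 193 and 129 CPM, and Dppa5a 1096 and 1584 CPM. Comparisons were therefore made within a set where EPSCs serve as controls. Within the second set, mESCs against EPSCs and S2 against P25 and P38 still place libraries of the 46 against libraries of the 6. In those comparisons the possible difference in counting and the condition cannot be told apart. The labels do not say if paired libraries are separate cultures, so the tests measure the spread between these libraries, which may be technical.

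Per kilobase of exon, the scale on which genes can be set side by side, the mean level of Dppa5a lay between 575 and 2735 CPM per kb over the 26 groups. Dppa4 lay between 24.9 and 116 CPM per kb, Dppa2 between 10.2 and 50.3, and Dppa3 between 1.48 and 47.6. All values that follow are CPM not divided by length. Dppa3 spread most across groups, with a range of 4.95 log2 units between its highest and lowest group means. The range was 2.3 log2 units for Dppa2, 2.25 for Dppa5a and 2.22 for Dppa4. The median SD within a group was between 0.05 and 0.09 log2 units for the 4 genes. The largest SD within a group was 0.55 for Dppa3 and 0.35 for Dppa4, both among the CHIR-99021 libraries, of which replicate 1 had the higher values. It was 0.35 for Dppa5a, in S5 without XAV939, and 0.26 for Dppa2, in S2 without Birabresib.

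**Figure D1:**
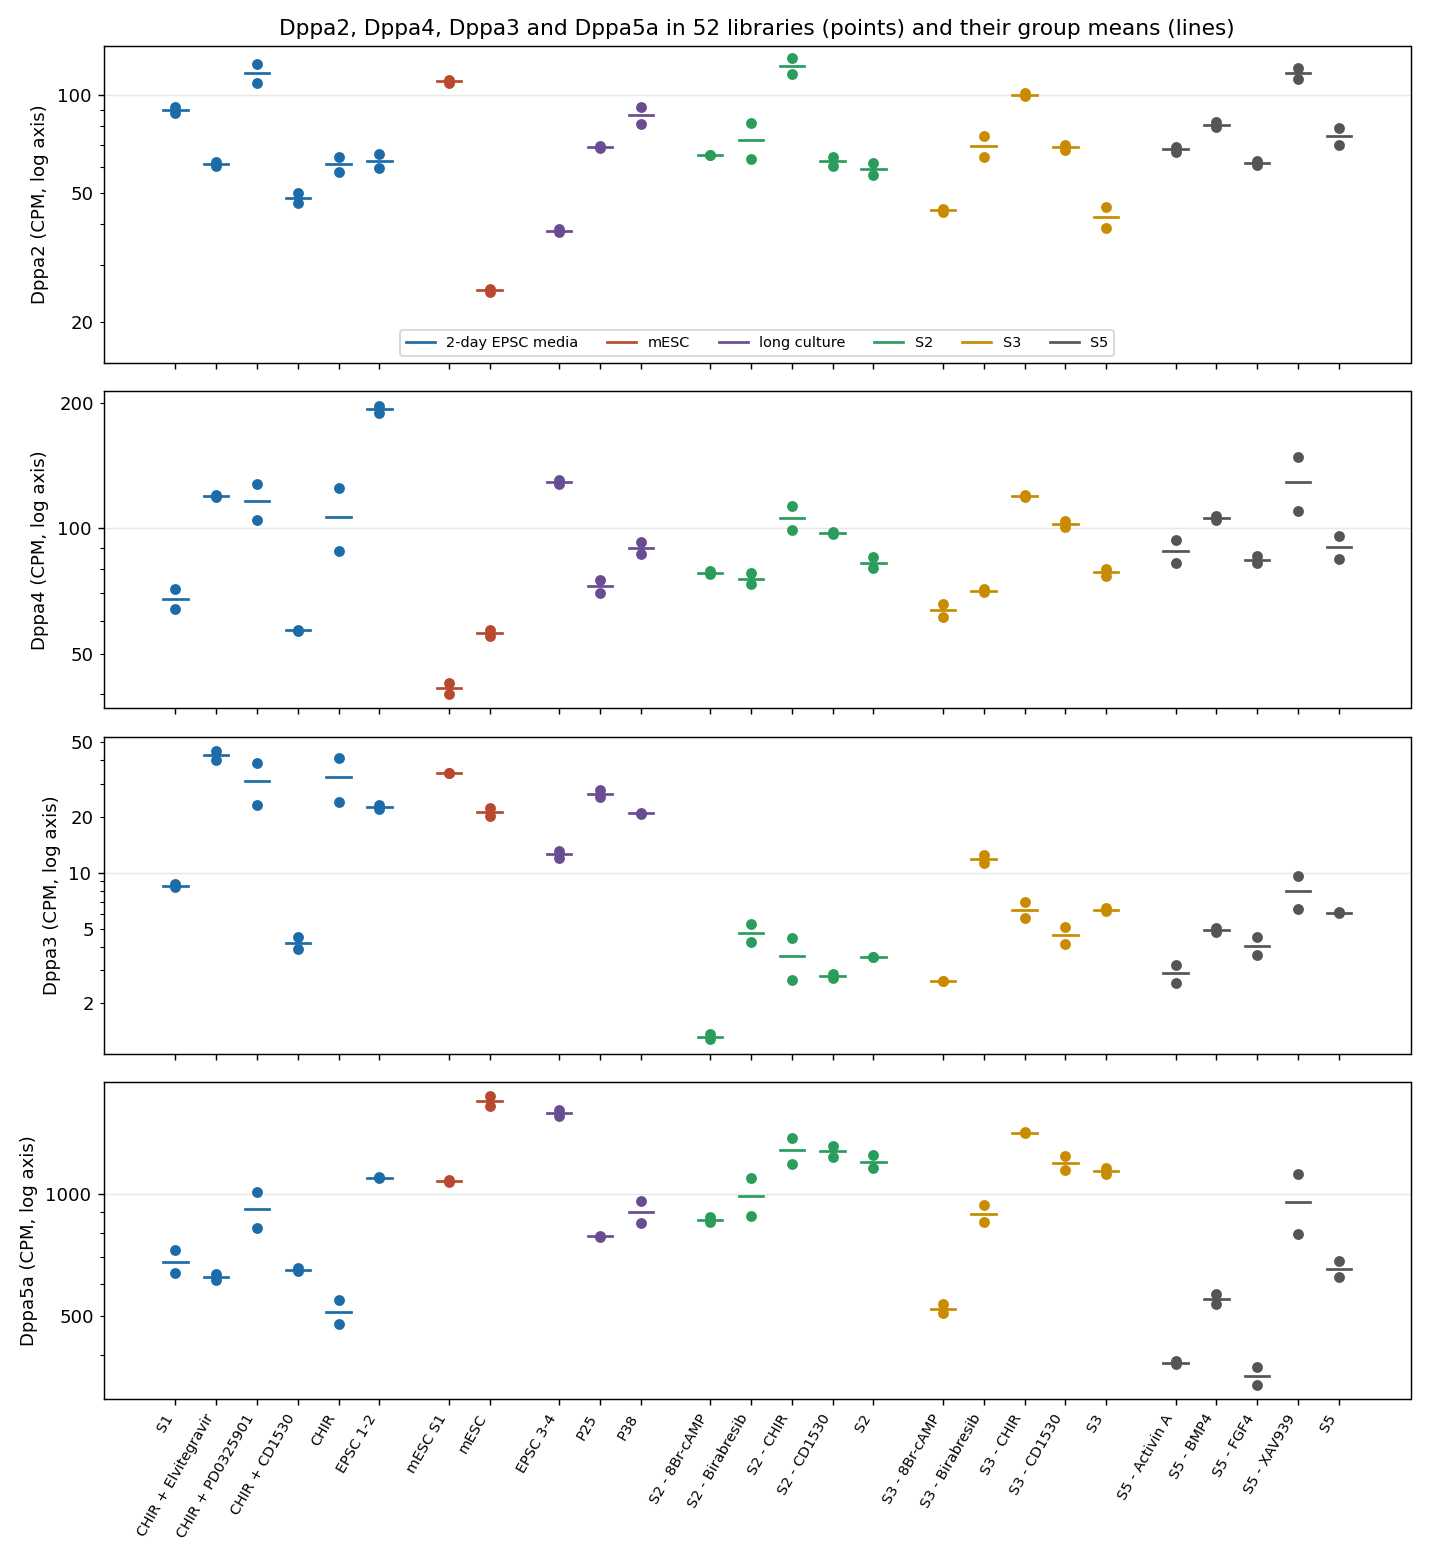
CPM on a log axis (y) of each Dppa gene in every library (points, 2 per group) and the group means (lines), with groups along the x axis; EPSC 1-2 and EPSC 3-4 are the untreated EPSC libraries of the first and second sets. Dppa3 spans the widest range, from 1.28 CPM in S2 without 8Br-cAMP to 44.9 CPM in CHIR-99021 with Elvitegravir, and its 2 CHIR-99021 libraries lie far apart at 41.1 and 23.9 CPM.

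The genes did not share an order of groups. Dppa2 was highest in S2 without CHIR-99021 and lowest in mESCs, Dppa4 highest in first-set EPSCs and lowest in mESCs after the totipotency medium, Dppa3 highest in CHIR-99021 with Elvitegravir and lowest in S2 without 8Br-cAMP, and Dppa5a highest in mESCs and lowest in S5 without FGF4. Between neighbours in the order, the libraries of adjacent groups overlapped in 16 of 25 places for Dppa2, 19 for Dppa4, 17 for Dppa3 and 13 for Dppa5a. The highest Dppa2 group overlapped the next, CHIR-99021 with PD0325901. The 2 lowest Dppa2 groups, mESCs below second-set EPSCs, were apart from each other and from the rest. The highest Dppa4 group, first-set EPSCs, and the lowest were each apart from the next. For Dppa5a the 3 highest groups, mESCs, second-set EPSCs and S3 without CHIR-99021, did not overlap one another.

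Changes were tested with edgeR's quasi-likelihood test in 1 fit over all 52 libraries, and a gene was called where its Benjamini-Hochberg adjusted p over the 25056 tested genes was under 0.05 and the size of the log2 fold change reached 1; "rose" and "fell" are kept for called genes. In S1 against EPSCs 27.8% of tested genes were called, and 2 of the 4 Dppa genes. Shares of called genes in comparisons within the first set, here and below, include the 3756 genes without counts there. Those genes cannot be called, so the shares would be higher without them. The differences between responses given below include these genes as well, although no first-set response could be measured for them. Their effect on those shares was not tested. CHIR-99021 against EPSCs called 18.7% of genes and 1 Dppa gene, and CD1530 added to CHIR-99021 called 16.7% and 1. The totipotency medium in mESCs called 22.5% and 1, mESCs against EPSCs 19.6% and 1, and the difference between the mESC and EPSC responses to the medium 18.7% and 3. P25 against EPSCs called 18.7% of genes and 2 Dppa genes, the difference between the P25 and the S1 response 9.3% and 1, and S2 against the long-term S1 cells 17.5% and 1. Among the omissions, 8Br-cAMP called 1.92% of genes and 1 Dppa gene in S2, and 6.63% and 2 in S3. Omission of CHIR-99021 called 5.07% and 1 in S2, and 9.16% and 1 in S3. Omission of Activin A from S5 called 1.12% and 1.

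In the other 12 comparisons edgeR called none of the 4, and DESeq2 none either; between 1 and 3 of the 4 had an unadjusted p under 0.05 in each. Background shares there were 0.00798% for Elvitegravir and 4.51% for PD0325901, each added to CHIR-99021, 0.339% for P38 against P25, 5.28% for S3 against S2 and 22.6% for S5 against S3. For S2 they were 2.98% without Birabresib and 2.33% without CD1530, and for S3 6.21% and 5.79% with the same omissions. For S5 they were 0.0559% without BMP4, 4.65% without FGF4 and 2.14% without XAV939. Over the 104 pairs of gene and comparison, 8 were called as rises, 11 as falls and 85 were not called, of which 37 had an adjusted p under 0.05 but a fold change below 2. Dppa2 had 4 rises and no fall, Dppa4 1 rise and 2 falls, Dppa3 3 rises and 6 falls, and Dppa5a 3 falls and no rise.

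**Figure D2:**
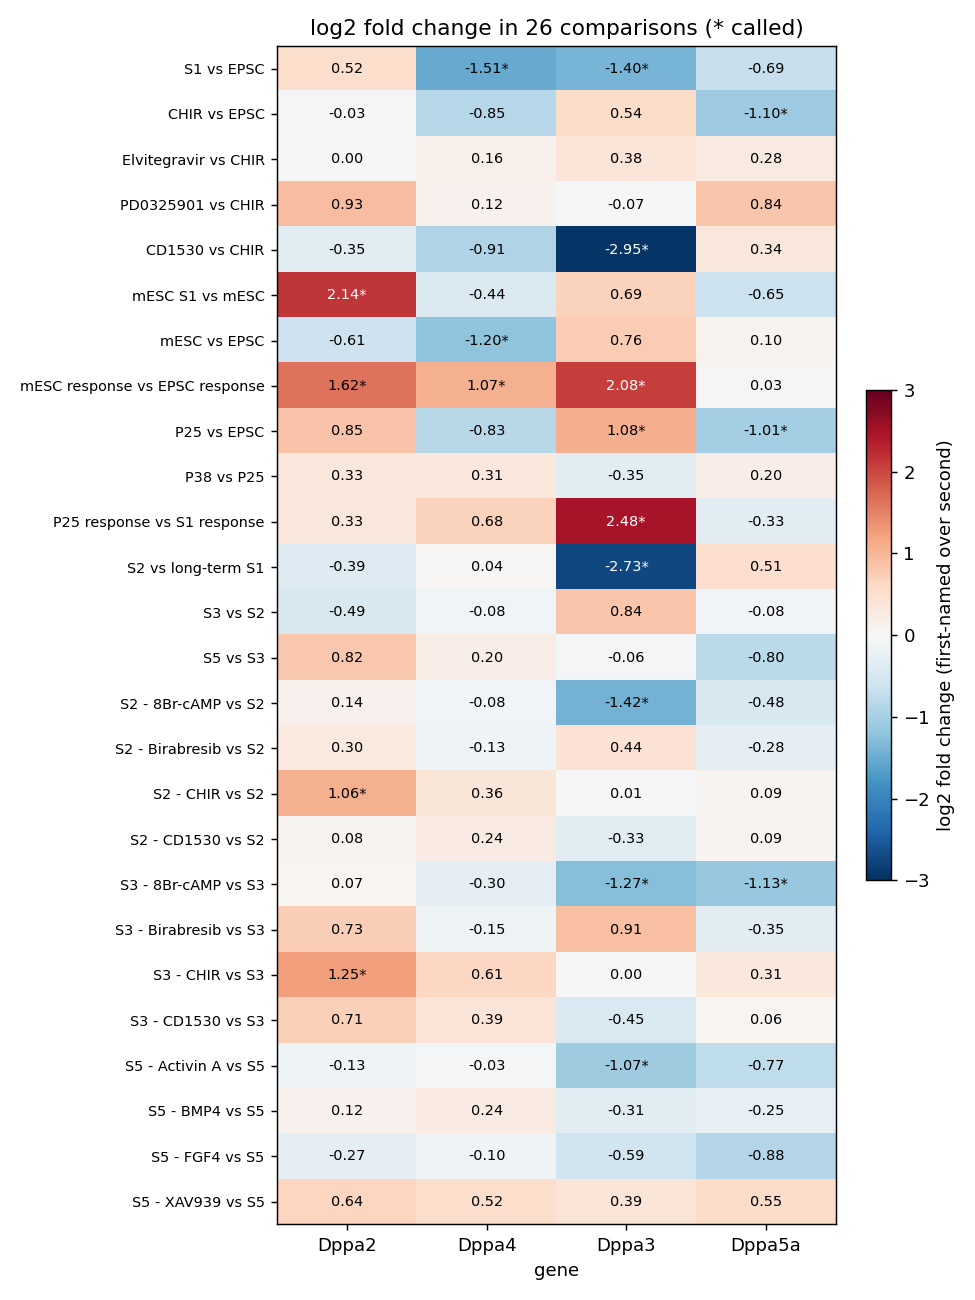
log2 fold changes (colour and printed value) of the 4 Dppa genes (columns) in the 26 comparisons (rows), each the first-named group over the second, with an asterisk where a change was called. The called values of Dppa2 are all positive and those of Dppa5a all negative, and the strongest falls are those of Dppa3 with CD1530 (-2.95) and in S2 (-2.73).

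Dppa2 and Dppa4 moved apart when EPSCs entered the totipotency medium. Dppa2 had 91.5 and 88.1 CPM in S1, against 59.7 and 65.7 CPM in EPSCs. Dppa4 had 71.5 and 64.1 CPM in S1, against 189 and 197 CPM in EPSCs. Neither pair of groups overlapped, and the genes lay on opposite sides: Dppa2 was higher in S1 by 0.52 ± 0.10 on the log2 scale (± SE here and throughout; edgeR adjusted p = 2.8e-05), short of the 2-fold threshold, while Dppa4 fell by 1.51 ± 0.12 (edgeR adjusted p = 8.7e-14). Of the genes that Dux is known to activate or that mark the 2-cell embryo, 22 of the 22 tested rose in S1, and their summed level was between 2446 and 2609 CPM in S1, against 0.985 to 1.67 CPM in EPSCs. Zscan4c, a member of the Zscan4 cluster, averaged 446 ± 23.8 CPM in S1 (SD, n = 2) and had no count in either EPSC library. The median log2 fold change of the list was 11.47 with the 15 genes that had no count on 1 side set against a floor of 3 counts per group, where the median of all tested genes was 0. In every comparison the median of all tested genes lay between -0.04 and 0.04, and the medians of lists given from here on are to be read beside it. Duxf3, the Dux gene of this table, was not among the tested genes. In bulk libraries, fewer cells of a type and less RNA per cell cannot be told apart.

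Genes known to restrain or modulate Dux and Dppa2 were examined beside the pair. Of 10 listed, 5 fell and none rose in S1 (median log2 fold change -1.05), against 9.16% of all tested genes that fell. Nr0b1, a nuclear receptor that is also in the list of pluripotency markers, fell to 2.04 CPM in S1, against 107 CPM in EPSCs, and Trim28, a corepressor that silences retroviral elements, fell to 702 CPM, against 2227 CPM. Pluripotency markers fell at the same time: 13 of 15 fell and none rose, Pou5f1 to 10.5 CPM in S1, against 274 CPM in EPSCs. The summed level of the markers was 621 to 653 CPM in S1, against 4405 to 4646 CPM in EPSCs, and Sox2 had no count in either group. The summed feeder fibroblast markers, of which 1 of 11 rose and 2 fell, were at 300 to 324 CPM in S1, against 289 to 314 CPM in EPSCs. Of 9 extraembryonic endoderm markers 5 rose and 2 fell (median log2 fold change 1.13), while their sum was lower, at 65.2 to 69.2 CPM in S1, against 91.6 to 96.1 CPM in EPSCs. The part of these shifts in the Dppa values was not tested.

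The EPSC controls were kept in LCDM medium. In comparisons of CHIR-99021 with EPSCs, here and below, CHIR-99021 and any change of base medium cannot be told apart. With CHIR-99021 alone Dppa2 had 64.5 and 57.8 CPM, against 59.7 and 65.7 CPM in EPSCs. The libraries overlapped, and the log2 fold change was -0.03 ± 0.10. Dppa4 had 125 and 88.4 CPM with CHIR-99021, against 189 and 197 CPM in EPSCs. The groups did not overlap, and the log2 fold change of -0.85 ± 0.11 (edgeR adjusted p = 1.1e-07) fell short of the threshold. It was -1.17, past the threshold, without CHIR-99021 replicate 1. Of the 2-cell genes, 20 of 22 rose with CHIR-99021 (median log2 fold change 4.84, with genes at 0 set to the floor), to a summed level of 24.4 to 29.1 CPM, against 0.985 to 1.67 CPM in EPSCs. Endoderm and feeder markers moved in this comparison as well. Of 9 extraembryonic endoderm markers 7 rose (median log2 fold change 2.85), to 360 to 405 CPM summed with CHIR-99021, against 91.6 to 96.1 CPM in EPSCs, and 8 of 11 feeder fibroblast markers fell (median -1.36), to 93.5 to 94.5 CPM, against 289 to 314 CPM. Their part in the Dppa4 value, and in that of Dppa5a given further on, was not tested.

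Among additions to CHIR-99021, PD0325901 had the strongest effect on Dppa2. Dppa2 had 124 and 109 CPM with PD0325901, against 64.5 and 57.8 CPM in CHIR-99021 alone, a log2 fold change of 0.93 ± 0.10 (edgeR adjusted p = 7e-09) that was just under the threshold and passed it, at 1.03, without CHIR-99021 replicate 1 or without PD0325901 replicate 2. Dppa4 had 128 and 105 CPM with PD0325901, and these libraries overlapped those of CHIR-99021 alone (log2 fold change 0.12 ± 0.11, edgeR adjusted p = 0.69). With CD1530, Dppa2 had 50.0 and 46.4 CPM and Dppa4 57.0 and 56.9 CPM. Both genes were lower in CD1530 than in CHIR-99021 alone, without overlap. The log2 fold changes were -0.35 ± 0.10 for Dppa2 (edgeR adjusted p = 0.0051) and -0.91 ± 0.12 for Dppa4 (edgeR adjusted p = 4.1e-08), below the threshold, although Dppa4 passed it at -1.11 without CHIR-99021 replicate 2. The 2-cell genes did not separate these arms in the way Dppa2 did: 21 of 22 rose with PD0325901 (186 to 247 CPM summed, median log2 fold change 2.84) and 21 of 22 with CD1530 (201 to 209 CPM summed, median 3.03), against 24.4 to 29.1 CPM in CHIR-99021 alone. Endoderm markers fell with PD0325901, 9 of 9 (median log2 fold change -3.97), to 15.0 to 16.9 CPM summed, against 360 to 405 CPM in CHIR-99021 alone, and their part in the Dppa2 and Dppa5a values of that arm was not tested. Elvitegravir left both genes near their CHIR-99021 values, with Dppa2 at 62.0 and 60.5 CPM and Dppa4 at 120 and 119 CPM.

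In mESCs the totipotency medium gave the strongest rise of Dppa2 in the series. Dppa2 had 109 and 111 CPM in treated mESCs, against 24.7 and 25.4 CPM in untreated mESCs, a log2 fold change of 2.14 ± 0.10 (edgeR adjusted p = 6.8e-19), or 4.39-fold. Dppa4 had 42.6 and 40.1 CPM in treated mESCs, against 57.1 and 55.1 CPM in untreated mESCs, a log2 fold change of -0.44 ± 0.12 (edgeR adjusted p = 0.0022). As in EPSCs the pair moved in opposite directions, but the sizes differed; the EPSC response comes from the first set and the mESC response from the second, so line and set cannot be told apart. The mESC response exceeded the EPSC response by 1.62 ± 0.14 log2 units for Dppa2 (edgeR adjusted p = 1e-11), since Dppa2 gained more, and by 1.07 ± 0.16 for Dppa4 (edgeR adjusted p = 1.6e-06), since Dppa4 lost less. With the 4 EPSC libraries as 1 group, the Dppa4 difference was 0.81 and no longer called. All 22 tested 2-cell genes rose in treated mESCs, to a summed level of 324 to 332 CPM, against 2.13 to 3.1 CPM in untreated mESCs (median log2 fold change 6.51, with the floor). Of 11 feeder markers 4 fell and 2 rose, and their sum was 1053 to 1061 CPM in treated mESCs, against 2210 to 2312 CPM in untreated mESCs; 6 of 9 endoderm markers rose and 2 fell. The part of these markers in the Dppa values of mESCs was not tested.

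Untreated mESCs held less of both genes than untreated EPSCs of the second set. Dppa4 had 57.1 and 55.1 CPM in mESCs, against 131 and 128 CPM in EPSCs, and fell by 1.20 ± 0.12 on the log2 scale (edgeR adjusted p = 9.9e-11). Dppa2 was lower by a log2 fold change of -0.61 ± 0.10 (edgeR adjusted p = 8.7e-06), which became -1.02 and was called when the 4 EPSC libraries formed 1 group. The 2 lines were also kept in different media, and their libraries differed in the share of even counts.

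After long culture in the totipotency medium the pair again moved in opposite directions. Dppa2 had 68.7 and 69.4 CPM at P25, against 37.8 and 38.7 CPM in second-set EPSCs, and Dppa4 had 69.9 and 75.3 CPM at P25, against 131 and 128 CPM. Neither comparison overlapped, and neither reached the threshold. The log2 fold changes were 0.85 ± 0.10 for Dppa2 (edgeR adjusted p = 1.4e-08) and -0.83 ± 0.12 for Dppa4 (edgeR adjusted p = 2.9e-07); against all 4 EPSC libraries the Dppa4 value was -1.15 and was called. At P38 Dppa2 had 81.3 and 91.8 CPM and Dppa4 86.8 and 92.6 CPM. Both were above their P25 libraries without overlap, but with adjusted p of 0.083 and 0.22 (edgeR), and their ratio stayed where it was. All 22 tested 2-cell genes rose at P25, to 554 to 560 CPM summed, against 0.962 to 1.35 CPM in EPSCs (median log2 fold change 7.40, with the floor). Feeder markers summed to 1323 to 1337 CPM at P25, against 764 to 777 CPM in EPSCs, with 2 of 11 risen and 1 fallen, and 7 of 9 endoderm markers rose and 2 fell. Their part in the Dppa values at P25 was not tested.

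The ratio of Dppa2 to Dppa4 within a library is free of library size. It was taken from CPM not divided by length, so only its differences between groups are read. Its log2 value was 0.41 in S1, against -1.62 in first-set EPSCs. It was 1.41 in treated mESCs, the highest of all groups, against -1.16 in untreated mESCs. It was -0.07 at P25 and -0.05 at P38, against -1.76 in second-set EPSCs, the lowest of all groups. With Elvitegravir, PD0325901 and CD1530 it was -0.96, 0.01 and -0.24, against -0.78 in CHIR-99021 alone. It was above 0 in both libraries of S1, treated mESCs and S2 without CHIR-99021 (0.22), and in no other group. As a description over the 26 group means, which share sets and controls, the correlation of the 2 genes was weak (Pearson r = 0.21).

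**Figure D3:**
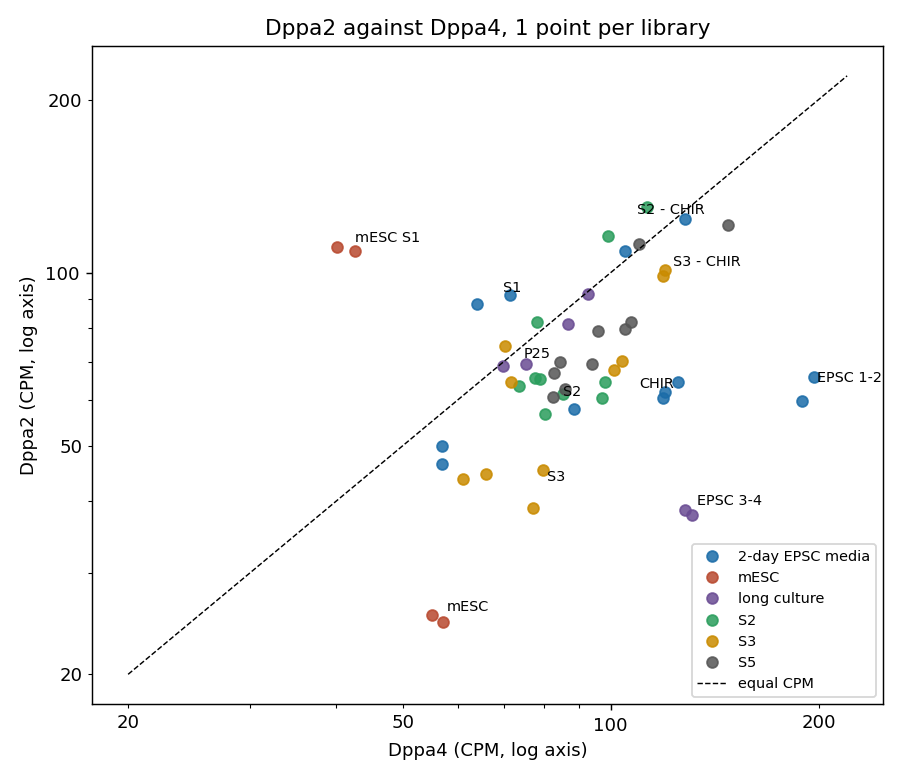
CPM of Dppa2 (y) against CPM of Dppa4 (x), both on log axes, 1 point per library and coloured by experiment; the dashed line marks equal CPM. Treated mESCs sit far above the line, at a log2 ratio of 1.41, and untreated mESCs below it, at -1.16. The untreated EPSC libraries of the 2 sets lie farthest below the line, at -1.62 and -1.76.

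In the aggregates, CHIR-99021 was the component whose omission raised Dppa2. Without it, Dppa2 had 116 and 130 CPM in S2, against 61.6 and 56.8 CPM in full S2 medium, and rose by 1.06 ± 0.10 on the log2 scale (edgeR adjusted p = 2.3e-10). In S3 without CHIR-99021 it had 98.8 and 101 CPM, against 45.3 and 38.9 CPM in full S3 medium, and rose by 1.25 ± 0.10 (edgeR adjusted p = 2.4e-12). The S2 value sat close to the threshold and was 0.98 without replicate 2 of the omission and 0.99 without replicate 2 of S2, both uncalled. Dppa4 had 99.1 and 113 CPM, against 85.4 and 80.3 CPM, in S2, and 119 and 120 CPM, against 79.8 and 77.1 CPM, in S3. Dppa4 was thus above its full-medium libraries without overlap, by log2 fold changes of 0.36 ± 0.12 (edgeR adjusted p = 0.03) and 0.61 ± 0.12 (edgeR adjusted p = 8.3e-05), below the threshold. The summed level of the 2-cell genes overlapped in S2 (148 to 187 CPM without CHIR-99021, against 163 to 199 CPM in full medium), and 9 of 22 rose in S3 (58.6 to 59.6 CPM, against 27.7 to 28.2 CPM; median log2 fold change 1.11). Extraembryonic endoderm markers rose as well, 5 of 9 in S2 (median log2 fold change 1.18) and 7 of 9 in S3 (median 1.99), where their summed level was 1636 to 1640 CPM without CHIR-99021, against 506 to 562 CPM. Their part in the Dppa2 values was not tested.

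Dppa2 was also higher in S3 without Birabresib or CD1530. It had 64.6 and 74.6 CPM without Birabresib (log2 fold change 0.73 ± 0.10, edgeR adjusted p = 1.6e-06) and 70.1 and 67.8 CPM without CD1530 (0.71 ± 0.10, edgeR adjusted p = 1.3e-06), against 45.3 and 38.9 CPM in full S3 medium. In S2 it had 63.4 and 82.0 CPM without Birabresib and 60.4 and 64.4 CPM without CD1530, against 61.6 and 56.8 CPM, with adjusted p of 0.053 and 0.78 (edgeR). Whether S2 and S3 differ in this was not tested. The 2-cell genes took opposite directions under these omissions: 22 of 22 rose in S3 without Birabresib (median log2 fold change 2.73), to 176 to 182 CPM, and 12 of 22 fell without CD1530 (median -1.35), to 8.74 to 10.6 CPM, against 27.7 to 28.2 CPM in full medium. Without 8Br-cAMP, Dppa2 had 65.5 and 65.4 CPM in S2 and 44.6 and 43.7 CPM in S3, log2 fold changes of 0.14 ± 0.10 and 0.07 ± 0.10.

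Dppa4 varied little over these omissions. It had 77.7 and 79.1 CPM without 8Br-cAMP, 73.6 and 78.1 CPM without Birabresib and 97.0 and 98.2 CPM without CD1530 in S2, against 85.4 and 80.3 CPM in full medium. In S3 it had 66.0 and 61.2 CPM, 71.6 and 70.3 CPM, and 104 and 101 CPM with the same omissions in the same order, against 79.8 and 77.1 CPM. Both stages gave higher values without CD1530, and edgeR's adjusted p was 0.27 in S2 and 0.013 in S3.

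Across stages, S2 was compared with the mean of P25 and P38, since the labels do not say which S1 cells formed the aggregates. The P25 and P38 libraries also differed from those of S2 in the share of even counts. Dppa2 averaged 59.2 CPM in S2, against 77.8 CPM in the long-term S1 cells, a log2 fold change of -0.39 ± 0.09 (edgeR adjusted p = 0.00048), and Dppa4 averaged 82.9 CPM, against 81.2 CPM (0.04 ± 0.10). Dppa2 was lower again in S3 than in S2 (log2 fold change -0.49 ± 0.10, edgeR adjusted p = 0.00043). In S5 it was higher, at 79.0 and 69.9 CPM, against 45.3 and 38.9 CPM in S3 (log2 fold change 0.82 ± 0.10, edgeR adjusted p = 1.1e-08). None of these reached a 2-fold change. The 2-cell genes followed the same sequence with larger steps: 20 of 22 fell in S2 (median log2 fold change -1.68), 21 of 22 fell in S3 (-2.24), and 20 of 22 rose in S5 (3.10), with sums of 163 to 199, 27.7 to 28.2 and 202 to 211 CPM in S2, S3 and S5. Other cell type markers moved between the stages too. In S2 against the long-term S1 cells 6 of 11 feeder markers fell and 1 rose (median log2 fold change -1.17), and 5 of 9 endoderm markers fell (median -1.18). In S3 against S2 8 of 9 endoderm markers rose (median 1.99) and 4 of 11 feeder markers fell (median -0.92). In S5 against S3 7 of 9 endoderm markers rose (median 2.79), to 3123 to 4052 CPM summed in S5, against 506 to 562 CPM in S3, and 9 of 11 feeder markers fell and 1 rose (median -1.66), to 66.0 to 69.9 CPM, against 184 to 206 CPM. Their part in the values of any Dppa gene across the stages was not tested.

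In S5, omission of XAV939 was the one omission with higher Dppa2 at an adjusted p under 0.05. Dppa2 had 121 and 112 CPM without XAV939, against 79.0 and 69.9 CPM in full S5 medium (log2 fold change 0.64 ± 0.10, edgeR adjusted p = 1.9e-05), and Dppa4 had 148 and 110 CPM, against 95.7 and 84.4 CPM (0.52 ± 0.11, edgeR adjusted p = 0.002). The groups did not overlap for either gene, and 19 of the 22 genes of the 2-cell list rose (median log2 fold change 1.38), to 520 to 552 CPM, against 202 to 211 CPM. Without Activin A, BMP4 and FGF4, Dppa2 had 69.3 and 66.8 CPM, 82.2 and 79.8 CPM, and 62.8 and 60.8 CPM. Dppa4 had 93.8 and 82.7 CPM, 107 and 105 CPM, and 85.9 and 82.6 CPM. None of these 6 had an edgeR adjusted p under 0.05.

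Dppa3 fell in S1 where Dppa2 did not. It had 8.41 and 8.67 CPM in S1, against 23.1 and 21.9 CPM in EPSCs, and fell by 1.40 ± 0.20 on the log2 scale (edgeR adjusted p = 2.6e-07). In CHIR-99021 with CD1530 it had 3.92 and 4.50 CPM, against 41.1 and 23.9 CPM in CHIR-99021 alone, and fell by 2.95 ± 0.22 (edgeR adjusted p = 1.3e-13), or 7.73-fold, the strongest change of any Dppa gene here. The wide spread of the CHIR-99021 libraries set its size but not its direction: the value was -2.43 without CHIR-99021 replicate 1 and -3.26 without replicate 2. The other 2 additions kept Dppa3 high, at 40.2 and 44.9 CPM with Elvitegravir and 38.7 and 23.0 CPM with PD0325901, both overlapping CHIR-99021 alone. Endoderm markers moved with CD1530 too: 9 of 9 rose (median log2 fold change 3.82), to 5793 to 5840 CPM summed, against 360 to 405 CPM in CHIR-99021 alone. Their part in the Dppa3 value was not tested.

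The Dppa3 response to the totipotency medium differed between mESCs or P25 cells of the second set and the S1 cells of the first set, so that line or length of culture and set cannot be told apart. In mESCs Dppa3 had 34.1 and 34.2 CPM after the totipotency medium, against 22.3 and 20.1 CPM in untreated mESCs, a log2 fold change of 0.69 ± 0.20 (edgeR adjusted p = 0.005) that was below the threshold. The mESC response exceeded the EPSC response by 2.08 ± 0.28 log2 units (edgeR adjusted p = 1.9e-07). At P25 it had 27.7 and 25.4 CPM, against 12.0 and 13.1 CPM in second-set EPSCs, and rose by 1.08 ± 0.21 (edgeR adjusted p = 8e-05). Against the 4 EPSC libraries as 1 group this was 0.59, no longer called. The P25 response exceeded the S1 response by 2.48 ± 0.29 log2 units (edgeR adjusted p = 3.7e-08), and by 1.64, still called, with the EPSC libraries joined. P38 libraries had 21.0 and 20.7 CPM, below P25 without overlap but with an edgeR adjusted p of 0.55. Untreated mESCs were above second-set EPSCs (log2 fold change 0.76 ± 0.21, edgeR adjusted p = 0.0039).

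All aggregate stages held little Dppa3. In S2 it had 3.55 and 3.52 CPM, against 20.7 to 27.7 CPM in the 4 libraries of P25 and P38, and fell by 2.73 ± 0.21 on the log2 scale (edgeR adjusted p = 2.9e-13), or 6.65-fold, in the comparison in which 6 of 11 feeder and 5 of 9 endoderm markers fell. The P25 and P38 libraries also differed from those of S2 in the share of even counts. S3 libraries had 6.24 and 6.45 CPM, above S2 (log2 fold change 0.84 ± 0.23, edgeR adjusted p = 0.0077). S5 libraries had 6.14 and 6.07 CPM, below S3 by less than the SE (-0.06 ± 0.22). No S2, S3 or S5 library exceeded 12.5 CPM. The 2-day S1 libraries of the first set, at 8.41 and 8.67 CPM, lay below that level too. So did those of CHIR-99021 with CD1530, at 3.92 and 4.50 CPM. Since the labels do not say which S1 cells formed the aggregates, the size of the S2 fall depends on the reference chosen.

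8Br-cAMP was the component whose omission lowered Dppa3 in both 4C-64C stages. Dppa3 had 1.37 and 1.28 CPM in S2 without 8Br-cAMP, against 3.55 and 3.52 CPM in full S2 medium, and fell by 1.42 ± 0.27 on the log2 scale (edgeR adjusted p = 0.00043). In S3 it had 2.64 and 2.63 CPM without 8Br-cAMP, against 6.24 and 6.45 CPM in full S3 medium, and fell by 1.27 ± 0.23 (edgeR adjusted p = 7.7e-05). In both stages the groups lay far apart compared with their spread. Without Birabresib it was higher, at 11.3 and 12.5 CPM in S3, against 6.24 and 6.45 CPM (log2 fold change 0.91 ± 0.21, edgeR adjusted p = 0.0018), and at 4.25 and 5.31 CPM in S2, against 3.55 and 3.52 CPM (edgeR adjusted p = 0.26). Omission of CHIR-99021 or CD1530 gave edgeR adjusted p of 0.16 to 1 in both stages, with 2.67 and 4.49 CPM or 2.74 and 2.88 CPM in S2, and 5.70 and 6.95 CPM or 4.14 and 5.11 CPM in S3.

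In S5, Dppa3 had 3.22 and 2.58 CPM without Activin A, against 6.14 and 6.07 CPM in full medium, and fell by 1.07 ± 0.23 on the log2 scale (edgeR adjusted p = 0.0032). This call was lost without replicate 2 of the omission, at -0.92 with an edgeR adjusted p of 0.12. Dppa3 had 5.05 and 4.81 CPM without BMP4, 4.51 and 3.61 CPM without FGF4, and 9.58 and 6.43 CPM without XAV939. The first 2 pairs were below full medium and the last above it, but edgeR's adjusted p was 0.78, 0.065 and 0.29.

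Genes of the processes Dppa3 is known for were set beside it. Uhrf1, the maintenance methylation factor that Dppa3 binds, fell to 361 CPM in S1, against 727 CPM in EPSCs (log2 fold change -1.01 ± 0.09, edgeR adjusted p = 1.8e-12), while Dppa3 fell as well. In S2 against the long-term S1 cells Uhrf1 was at 586 CPM, against 522 CPM (0.17 ± 0.07, edgeR adjusted p = 0.071), while Dppa3 fell 6.65-fold. Of 9 genes that write or remove DNA methylation, 4 fell and 1 rose in S1 (median log2 fold change -0.48), led by Tet1, which oxidises methylated cytosine and had 71.1 CPM in S1, against 807 CPM in EPSCs. In S2 without 8Br-cAMP 1 of the 9 rose, Dnmt3l, a cofactor of de novo methylation, at 44.6 CPM, against 10.6 CPM. Of 8 germ cell genes, Prdm14, a regulator of germ cell fate, fell beside Dppa3 in both stages without 8Br-cAMP: to 5.77 CPM, against 17.1 CPM, in S2, and to 5.55 CPM, against 24.3 CPM, in S3. It was the 1 of 8 called in S2, and Prdm1 fell with it in S3. Among 14 tested maternal-effect and oocyte genes, 3 rose and 2 fell in S1. Zp3, a gene of the egg coat, fell to 2.99 CPM in S1, against 11.0 CPM in EPSCs, and Tle6, a part of the subcortical maternal complex, rose to 18.7 CPM, against 4.80 CPM.

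Gdf3 and Nanog, within 100 kb of Dppa3 on chromosome 6, are known to be expressed with it in pluripotent cells. Gdf3, a TGF-beta family ligand 16.3 kb away, fell with Dppa3 in S1 (log2 fold change -3.41), with CD1530 (-3.16) and in S2 (-1.57). It was not called in the omissions of 8Br-cAMP or Activin A, where Dppa3 fell, nor at P25, where Dppa3 rose. Without 8Br-cAMP the log2 fold change of Gdf3 was 0.24 in S2 and 0.39 in S3 (edgeR adjusted p = 0.37 and 0.034). It was -0.49 without Activin A (edgeR adjusted p = 0.026) and -0.64 at P25 (edgeR adjusted p = 8.2e-05), the latter opposite to Dppa3. Nanog, a core pluripotency factor 77.2 kb away, fell in S1 (-2.36) and with CD1530 (-3.25) but also with CHIR-99021 alone (-3.36), where Dppa3 was at 41.1 and 23.9 CPM, against 23.1 and 21.9 CPM in EPSCs. Over the 26 group means the Pearson r with Dppa3 was 0.64 for Gdf3 and -0.09 for Nanog, given as a description of groups that share sets and controls. Over the 20 groups of the second set alone the r was 0.72 for Gdf3 and 0.42 for Nanog, so the Nanog value depended on the first set.

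**Figure D4:**
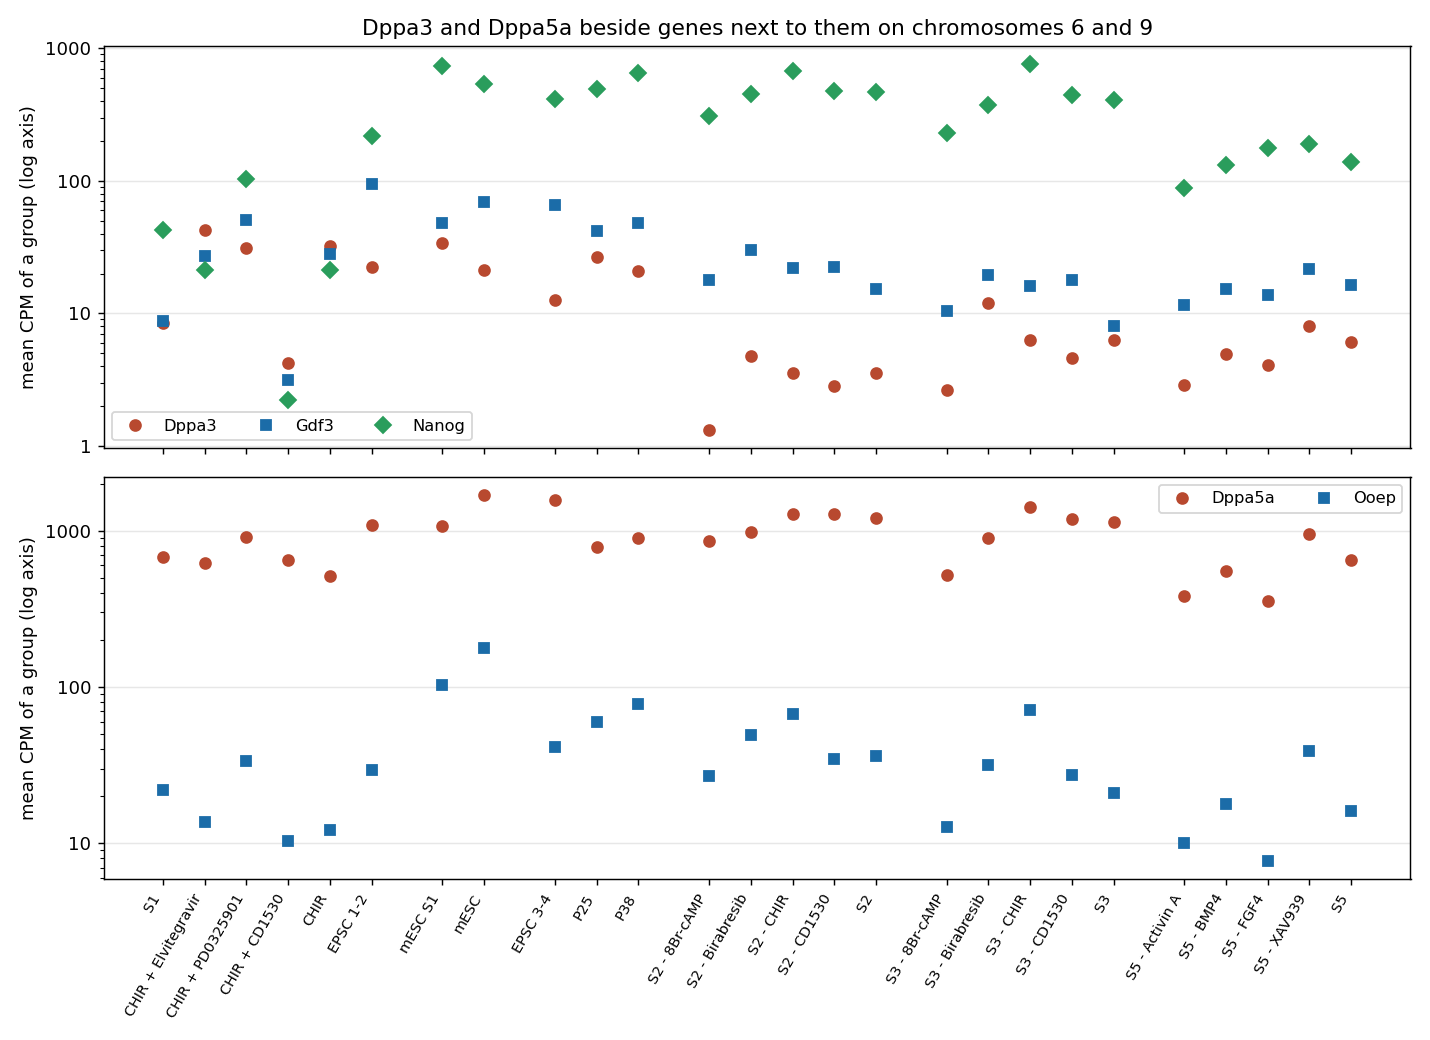
Mean CPM per group on a log axis (y) over the 26 groups (x), for Dppa3 with Gdf3 and Nanog (top) and Dppa5a with Ooep (bottom). With CD1530 all 3 genes of the top panel are below their CHIR-99021 means (4.21 against 32.5 CPM for Dppa3), whereas in S2 Dppa3 is low at 3.54 CPM and Nanog is not.

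Dppa5a had the highest level per kilobase of the 4 genes, and its called changes were all falls. In CHIR-99021 it had 546 and 478 CPM, against 1094 and 1098 CPM in EPSCs, and fell by 1.10 ± 0.11 on the log2 scale (edgeR adjusted p = 3.4e-10). In S1 it had 725 and 636 CPM, against the same EPSC libraries, and was lower by a log2 fold change of -0.69 ± 0.11 (edgeR adjusted p = 2.3e-06), below the threshold. PD0325901 added to CHIR-99021 gave 1010 and 824 CPM (log2 fold change 0.84 ± 0.11, edgeR adjusted p = 7.4e-07), CD1530 644 and 656 CPM (0.34 ± 0.11, edgeR adjusted p = 0.013) and Elvitegravir 612 and 635 CPM (0.28 ± 0.11, edgeR adjusted p = 0.16), each above the 546 and 478 CPM of CHIR-99021 alone. All 3 arms were above CHIR-99021 without overlap, and that with PD0325901 came closest to the EPSC level. In these arms the pluripotency markers took different courses: 13 of 15 fell with CHIR-99021 (median log2 fold change -3.12), 6 of 15 rose with PD0325901 (median 0.94), and with CD1530 4 rose and 5 fell. The median with CD1530 was 0, the value of Sox2, which had no count in these arms.

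Dppa5a was lower after the totipotency medium in mESCs and at P25 as well as in S1. In mESCs it had 1083 and 1070 CPM after treatment, against 1739 and 1647 CPM without (log2 fold change -0.65 ± 0.11, edgeR adjusted p = 8.2e-06). The mESC response differed from the EPSC response by 0.03 ± 0.16 log2 units (edgeR adjusted p = 1). At P25 it had 784 and 786 CPM, against 1611 and 1557 CPM in second-set EPSCs, and fell by 1.01 ± 0.11 (edgeR adjusted p = 2e-09). That call sat at the threshold: the value was -0.99 in a fit of these libraries alone and without EPSC replicate 3, and -0.77 against the 4 EPSC libraries as 1 group. P38 had 961 and 846 CPM (edgeR adjusted p = 0.51 against P25). Of the pluripotency markers 9 of 15 fell in treated mESCs (median log2 fold change -1.19) and 10 of 15 at P25 (-1.25). Untreated mESCs and second-set EPSCs had close levels (log2 fold change 0.10 ± 0.11).

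In S2 and S3 Dppa5a stayed high. It had 1244 and 1155 CPM in S2, above the mean of 844 CPM in the long-term S1 cells (log2 fold change 0.51 ± 0.10, edgeR adjusted p = 3.3e-05), and 1157 and 1118 CPM in S3. Omission of 8Br-cAMP gave the lowest values of both stages. Dppa5a had 507 and 534 CPM in S3 without it, against 1157 and 1118 CPM, and fell by 1.13 ± 0.11 (edgeR adjusted p = 9.1e-10). In S2 it had 874 and 850 CPM without it, against 1244 and 1155 CPM, a log2 fold change of -0.48 ± 0.11 (edgeR adjusted p = 0.0049). Pluripotency markers fell in the same omission, 8 of 15 in S3 (median log2 fold change -1.04) and 2 of 15 in S2 (-0.52), among them Pou5f1 at 97.2 CPM in S3 without 8Br-cAMP, against 246 CPM in full medium. Endoderm markers fell there too, 8 of 9 in S3 (median log2 fold change -1.91), to a sum of 147 CPM in both libraries, against 506 to 562 CPM.

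The remaining omissions moved Dppa5a less in these stages. In S2 it had 881 and 1094 CPM without Birabresib, 1187 and 1375 CPM without CHIR-99021 and 1231 and 1315 CPM without CD1530, and in S3 937 and 850 CPM, 1410 and 1421 CPM, and 1143 and 1237 CPM. In S3 the omission of Birabresib (log2 fold change -0.35 ± 0.11, edgeR adjusted p = 0.025) and that of CHIR-99021 (0.31 ± 0.11, edgeR adjusted p = 0.035) lay on opposite sides of full medium.

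Dppa5a was lower in S5, at 623 and 683 CPM, against 1157 and 1118 CPM in S3 (log2 fold change -0.80 ± 0.11, edgeR adjusted p = 2.1e-07), where 7 of 9 endoderm markers rose and 9 of 11 feeder markers fell. Without FGF4 it had 338 and 373 CPM (log2 fold change -0.88 ± 0.11, edgeR adjusted p = 2.5e-07), without Activin A 386 and 380 CPM (-0.77 ± 0.11, edgeR adjusted p = 1.3e-05), without BMP4 565 and 536 CPM (-0.25 ± 0.11, edgeR adjusted p = 0.5) and without XAV939 1117 and 794 CPM (0.55 ± 0.11, edgeR adjusted p = 0.00087). Neither FGF4 nor Activin A omission reached the threshold, although both were below full medium without overlap. In the FGF4 omission 7 of 15 pluripotency markers fell (median log2 fold change -0.94), among them Esrrb at 18.5 CPM, against 104 CPM, and 9 of 9 endoderm markers fell (median -2.05). The part of these markers in the Dppa5a values of S3 and S5 was not tested. In the Activin A omission 3 of 15 fell and 2 of 9 endoderm markers rose, and 7 of the 9 were not called.

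Genes related to Dppa5a by fold or position were followed beside it. Of 5 KH-domain relatives, Ooep, a part of the subcortical maternal complex, lies 7.93 kb from Dppa5a. It had its own calls: a fall with CHIR-99021 (log2 fold change -1.28), where Dppa5a fell, and in S5 without FGF4 (-1.06), and rises with PD0325901 (1.47), in mESCs against EPSCs (2.10), in S3 without CHIR-99021 (1.77) and in S5 without XAV939 (1.29). Where Dppa5a fell at P25, Ooep was higher (0.53, edgeR adjusted p = 0.0014). In S3 without 8Br-cAMP, where Dppa5a also fell, Ooep was lower (-0.71, edgeR adjusted p = 0.00012). Neither Ooep value was called. In S1 3 of the 5 relatives rose, all Khdc1 genes that averaged under 1 CPM. Over the 26 group means the Pearson r with Dppa5a was 0.80 for Ooep, again as a description.

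For each gene, the 5 most alike of 11433 expressed and named genes were found by the Pearson r of mean log2 CPM over the 26 groups, which share sets and controls. For Dppa2 they were S1pr2 (r = 0.78), Igfbp3, Dusp5, Basp1 and Ctr9, and for Dppa4 Nol10 (r = 0.91), Olig2, Lsg1, Enox1 and Sec23b. For Dppa3 they were Acsbg2 (r = 0.84), Rasgrp1, Asb16, Hsd17b14 and Zp3, and for Dppa5a Sox15 (r = 0.90), Spp1, H2-M5, Gmcl1 and Zfp42. No Dppa gene was in the list of another, and between the 4 the r over all groups lay between -0.08 and 0.21. Of these 20 genes, 1 was in the pluripotency list, Zfp42, a marker of naive pluripotency, and 1 in the list of maternal genes, Zp3. Zscan4c had an r of 0.61 with Dppa2, -0.43 with Dppa4, -0.23 with Dppa3 and -0.39 with Dppa5a. In the second set alone these were 0.72, -0.13, -0.08 and -0.49, and the r between Dppa genes ran from -0.34 to 0.31. Most places in the lists changed there. Dusp5 stayed for Dppa2, Nol10 and Sec23b for Dppa4, H2-M5 for Dppa5a and no gene for Dppa3. The genes named above still had r of 0.74 to 0.93 in that set.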

How the data were processed

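RNA was extracted with RNeasy kits and sequenced as oligo-dT selected, paired 100-base libraries on an Illumina HiSeq instrument, per the labels' protocols. The deposited values are raw read counts per gene, which the authors made with Trimmomatic 0.39, STAR 2.7.10b and featureCounts 2.0.6 on mm10, per the submitters' processing notes, with the handling of strand, multi-mapping reads and pairs not given in the sources used here. No sample column was left out.

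Counts were analysed with edgeR 4.0.16 in R 4.3.3 by a quasi-likelihood F test over 26 group means, with TMM scaling, edgeR's low-count filter and Benjamini-Hochberg adjustment over all 25056 tested genes. Each SE is the absolute log2 fold change divided by the square root of its F statistic. Levels are CPM after TMM scaling. The fit was tested on simulated data.

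The members and gene lists were chosen with earlier results of these data known. Named list genes are among the 4 smallest adjusted p of the called genes of a list; Uhrf1 in S2 and the neighbours Gdf3, Nanog and Ooep are named for their relation to a Dppa gene.

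Alternatives were DESeq2 1.42.0, its size factors in edgeR, no low-count filter, the libraries of a comparison alone, a replicate block, halved counts, 1 joined EPSC group and leaving out each library. Adding pseudogene counts was chosen after the data were seen. Depth was 16643188 to 108304781 counts per library, and 2 libraries per group limit the precision.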

Additional observations from a re-analysis of the deposited data

Results flagged for a closer look

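In 4 cases the response of a Dppa gene to the totipotency medium differed between kinds of cells or lengths of culture, by a test of the difference itself. The mESC response exceeded the EPSC response by 1.62 log2 units for Dppa2, which rose in mESCs (2.14) and was at 0.52 in EPSCs. For Dppa3 the difference was 2.08, between 0.69 in mESCs and a fall in EPSCs (-1.40). For Dppa4 it was 1.07, between -0.44 in mESCs and a fall in EPSCs (-1.51). The Dppa3 response at P25 exceeded that after 2 days by 2.48 log2 units, with a rise at P25 (1.08) and a fall in S1 (-1.40). The EPSC response and the S1 response come from the first set, whereas the others come from the second, so set and condition cannot be told apart.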

How the results depend on the processing

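No called result for a Dppa gene changed sign, but values that were not called did. With the 4 EPSC libraries as 1 group Dppa2 was at 0.27 with CHIR-99021, against -0.03, and the difference between the P25 and S1 responses was -0.38 for Dppa2, against 0.33, and 0.21 for Dppa5a, against -0.33. Under both DESeq2 and its size factors, Dppa4 in S2 against the long-term S1 cells was -0.03, against 0.04, and the Dppa5a difference between mESC and EPSC responses -0.03, against 0.03 (-0.02 with the libraries alone). Leaving out 1 library, signs changed within the ranges -0.16 to 0.03 for Dppa2 with CHIR-99021, -0.03 to 0.18 for Dppa2 in S3 without 8Br-cAMP, -0.50 to 0.41 for Dppa3 with PD0325901, -0.40 to 0.33 for Dppa3 in S2 without CHIR-99021, -0.06 to 0.47 for Dppa4 with Elvitegravir, -0.11 to 0.42 for Dppa4 with PD0325901, -0.12 to 0.06 for Dppa4 in S5 without Activin A, -0.04 to 0.15 for the Dppa5a response difference and -0.01 to 0.18 for Dppa5a in S2 without CHIR-99021. All 104 kept their call under DESeq2, its size factors, no low-count filter and halved counts, and all 78 with pseudogene counts added. With the libraries of a comparison alone 103 of 104 did (Dppa5a at P25 was -0.99). The 4 EPSC libraries as 1 group gave 19 of 24 the same call; the others were Dppa2 in mESCs against EPSCs (-1.02), Dppa3 (0.59), Dppa4 (-1.15) and Dppa5a (-0.77) at P25, and the Dppa4 difference between mESC and EPSC responses (0.81). Leaving out 1 library kept 448 of 456. The exceptions lay in the ranges 0.84 to 1.03 for Dppa2 with PD0325901, 0.98 to 1.12 for Dppa2 in S2 without CHIR-99021, -1.24 to -0.92 for Dppa3 without Activin A, -1.11 to -0.56 for Dppa4 with CD1530, -1.17 to -0.64 for Dppa4 with CHIR-99021 and -1.04 to -0.99 for Dppa5a at P25. The causes were not tested. The labels name no batch shared by same-numbered libraries, and their deviations had r of -0.03 to 0.43 over 21 comparisons; the 1 above 0.1 was PD0325901 against CHIR-99021 alone, where replicate 1 was above replicate 2 in both groups for all 4 genes. With the replicate block all 104 kept their call, Dppa2 in treated mESCs at 2.14.

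Counts of called genes behind the background shares moved more. For Elvitegravir 2 genes became 43 with DESeq2, 142 without the filter, 1562 without CHIR-99021 replicate 1, and 0 with halved counts, the libraries alone or any other library left out. For PD0325901 1129 became 3 with the libraries alone. With joined EPSCs, CHIR-99021 went to 7564 genes, against 4673, and the P25 difference to 7517, against 2331. P38 against P25 had 85, with 45 to 167 under alternatives; S2 without Birabresib 746, with 366 to 484; S5 without BMP4 14, with 0 to 108; and S5 without XAV939 536, with 182 to 991. With 2 libraries a group, a missed call does not show that values did not differ.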
